A study of Mus musculus with 272 samples.

Results

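The E proteins, the Id proteins and the basic helix-loop-helix (bHLH) repressors Twist1, Twist2 and Msc were examined as a family of 10 genes, chosen by gene name in the GENCODE M21 annotation of the mouse genome build mm10. They are 10 of 55413 annotated genes and of 21938 protein-coding genes. The family holds 3 E protein genes (Tcf3, Tcf4 and Tcf12), 4 Id genes (Id1, Id2, Id3 and Id4) and 3 repressor genes (Twist1, Twist2 and Msc). For each gene the promoter, taken as 3 kb either side of every annotated start site, and all peaks in the gene and within 50 kb either side were read from each replicate. Positions are given in kb from the 5′ end of the gene, negative before it.

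E proteins are broadly expressed bHLH transcription factors that pair with tissue-specific bHLH factors, such as MyoD and Myf5 in muscle, and bind the E-box motif CANNTG. Id proteins have the helix-loop-helix but lack the basic region that contacts DNA, so they hold E proteins in pairs that cannot bind, and in many cells their genes are induced by bone morphogenetic protein (BMP) signalling through SMAD proteins. Twist proteins and Msc (also called musculin or MyoR) are bHLH factors that also pair with E proteins and are known to oppose myogenic bHLH activity.

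The study edited loci in skeletal muscle stem cells (MuSCs) of mice with Cas9, and of its 272 samples the 8 used here describe the chromatin of these cells without a guide RNA being named in their labels. They are ATAC-seq, which marks open chromatin, and chromatin immunoprecipitation for H3K4me3 (a mark of promoters), H3K27ac (found on active promoters and on enhancers in use) and H3K27me3 (a Polycomb mark of silent genes), each with 2 replicates. By the isolation protocol in their labels, the cells were GFP+ MuSCs sorted from hindlimb muscles of Pax7Cas9 mice, in which Cre driven from Pax7 switches on Cas9 and EGFP at Rosa26. By that protocol all 8 libraries come from cells with Cas9, and any cell that has once expressed Pax7 can be labelled. For these 8 samples the labels give skeletal muscle as the tissue and no strain, age or treatment, and they do not say whether the replicates came from separate animals. Each file is a list of peaks called in 1 library, with the fold enrichment over the local background at the summit. It holds no read numbers, so the sequencing depth is unknown. The labels name 1 input library for H3K27me3 and H3K4me3 and another for H3K27ac, neither of them separate for the 2 replicates. No condition was compared, no test was run, and the error shown is the difference between replicates.

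The replicate lists differed in length, from 140716 peaks against 94382 for ATAC-seq to 6064 against 10458 for H3K27me3. Of the 13 muscle stem cell markers, Msc among them, 13 had an H3K4me3 and 12 an H3K27ac promoter peak in both replicates, and Pax7 had an H3K27ac fold of 15 and 14.7. The defining genes of other cells were mostly without H3K27ac: 3 of 10 fibro-adipogenic, 1 of 10 endothelial, 1 of 9 blood and 3 of 10 myofibre markers had it in both replicates. The share over all protein-coding genes was 46.6%. H3K4me3 promoter peaks were present in both replicates for 4 to 5 genes of each of those lists, against 60.8% of all protein-coding genes. ATAC-seq promoter peaks were present in both for 6 to 9 genes of each, against 67.8%. Other cells in the sort thus cannot be told apart from open but unacetylated promoters in MuSCs. Peaks are also a property of the mixture: a mark in fewer cells and a lower level in every cell cannot be told apart.

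All 10 genes had an ATAC-seq and an H3K4me3 promoter peak in both replicates, against 67.8% and 60.8% of all protein-coding genes. The 8 genes other than Twist1 and Twist2 also had an H3K27ac promoter peak in both, against 46.6% of all genes, and the same 8 had all 3 features, against 46.2%. Twist1 and Twist2 were open and carried H3K4me3 but had no H3K27ac peak in either replicate, a state found in 10.5% of all protein-coding genes. H3K27me3 lay on the Twist1 promoter in both replicates, 1 member against 4.81% of all genes, and Twist1 was also the 1 member with H3K4me3 and H3K27me3 together in both replicates, against 3.85%. On Twist2 it was called in replicate 2 only, so that 2 members had it in either replicate, against 8.49%. The other 8 genes had no H3K27me3 promoter peak in either list.

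**Figure D1:**
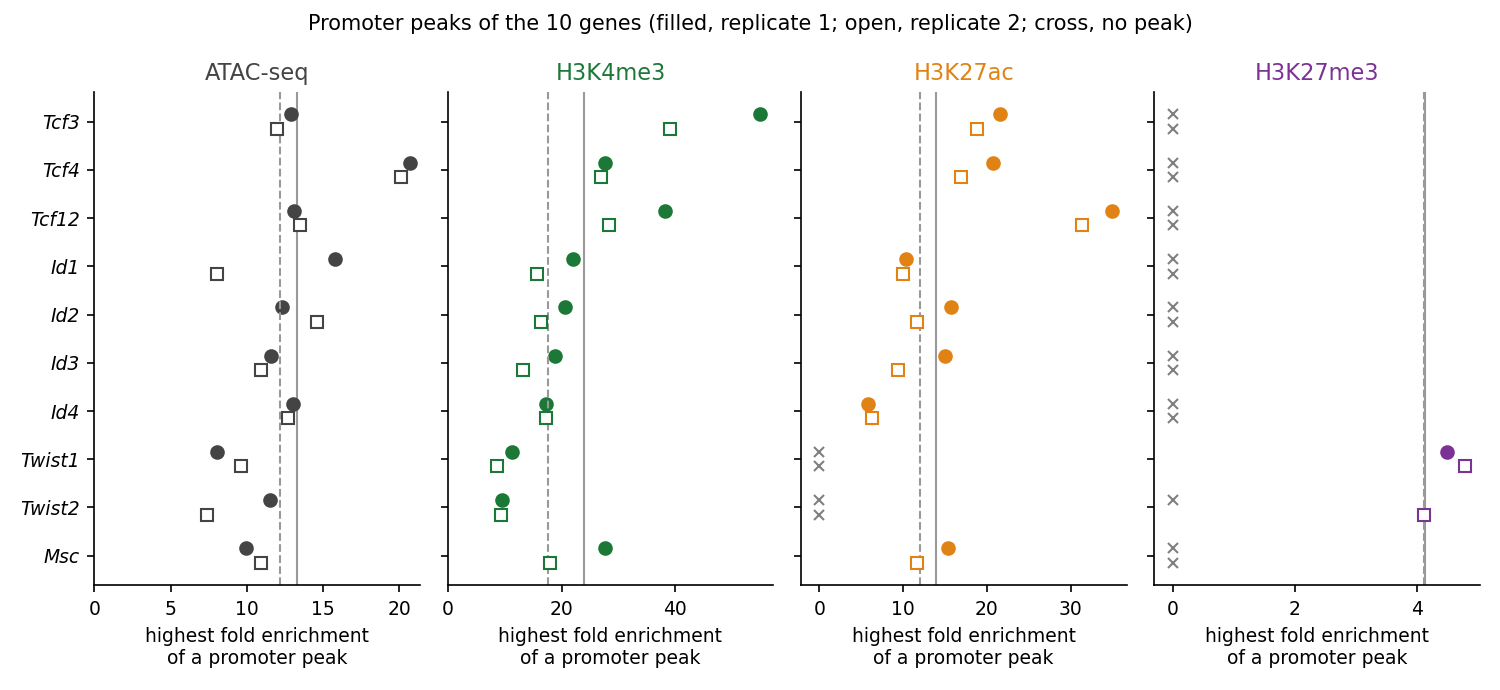
Highest fold enrichment of a promoter peak (x axis, fold over local background) for each gene (y axis) in each of the 4 features; filled circles are replicate 1, open squares replicate 2, grey crosses mark no peak, and the solid and dashed lines are the medians of all marked protein-coding genes in replicates 1 and 2. Tcf3, Tcf4 and Tcf12 lie right of the H3K4me3 and H3K27ac medians, the Id genes lie near or left of them, and Twist1 and Twist2 have no H3K27ac point.

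Sequence was taken from the GRCm38.p6 reference for the elements on which the descriptions turn. For Tcf4 no sequence or motif is given. For each other gene, ATAC-seq peaks found in both replicates and overlapped by H3K27ac in both were considered. Peaks on promoters of other genes were left out, as were windows that held an annotated exon. Peaks on the promoters of Id1 and Msc, which were missing from the set of RefSeq promoter sequences used, were also left out. A fold of at least 10 in the lower replicate was required. The remaining peak highest in fold in its lower replicate was chosen, and 151 bases around the replicate 1 summit are shown on the plus strand. For Twist1 and Twist2, which had no H3K27ac, the 150 bases before the RefSeq start site are shown. Capitals mark E-boxes (CANNTG), the SMAD1/5 element GGCGCC and the AP-1 element TGANTCA, searched on both strands.
Tcf3 promoter, chr10:80433991-80434141: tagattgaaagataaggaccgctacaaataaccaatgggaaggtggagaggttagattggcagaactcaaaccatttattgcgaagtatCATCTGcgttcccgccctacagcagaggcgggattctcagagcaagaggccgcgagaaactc
Tcf12 upstream element, chr9:72133285-72133435: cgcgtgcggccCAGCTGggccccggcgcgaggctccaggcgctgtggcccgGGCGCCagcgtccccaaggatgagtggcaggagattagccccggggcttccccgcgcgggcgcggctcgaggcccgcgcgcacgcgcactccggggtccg
Id2 upstream element, chr12:25110466-25110616: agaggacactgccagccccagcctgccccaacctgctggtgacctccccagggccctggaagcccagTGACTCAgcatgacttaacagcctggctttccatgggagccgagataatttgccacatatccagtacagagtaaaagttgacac
Id3 upstream element, chr4:136117089-136117239: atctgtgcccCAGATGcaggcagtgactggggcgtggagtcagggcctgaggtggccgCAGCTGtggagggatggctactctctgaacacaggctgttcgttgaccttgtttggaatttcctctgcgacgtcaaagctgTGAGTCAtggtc
Id4 promoter, chr13:48260817-48260967: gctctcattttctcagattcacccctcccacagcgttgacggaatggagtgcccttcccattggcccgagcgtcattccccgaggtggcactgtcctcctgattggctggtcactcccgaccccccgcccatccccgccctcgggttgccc
Msc upstream element, chr1:14775342-14775492: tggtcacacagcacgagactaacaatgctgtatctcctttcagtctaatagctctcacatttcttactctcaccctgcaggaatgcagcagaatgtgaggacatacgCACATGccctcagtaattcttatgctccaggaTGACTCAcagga
Twist1 promoter, chr12:33957521-33957670: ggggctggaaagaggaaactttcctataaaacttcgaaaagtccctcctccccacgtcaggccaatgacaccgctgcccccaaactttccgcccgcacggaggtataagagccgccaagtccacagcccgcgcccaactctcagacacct
Twist2 promoter, chr1:91801311-91801460: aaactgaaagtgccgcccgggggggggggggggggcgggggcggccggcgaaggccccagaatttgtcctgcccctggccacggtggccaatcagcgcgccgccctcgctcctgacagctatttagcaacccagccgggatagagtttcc

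The windows away from promoters of Id2, Id3 and Msc each held 1 AP-1 element, and the Id3 window also held the E-boxes CAGATG and CAGCTG. The Tcf12 element was GC-rich, with 80.1% G or C and 24 CpG in 151 bases, and held a CAGCTG and a GGCGCC. The windows of Id4, Twist1 and Twist2 held none of these letters. The Twist2 window lies in an exon of the antisense gene Gm29100, which is transcribed from the other strand.

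Motifs were counted in 58 windows of 151 bases, at the ATAC-seq peaks away from all promoters and found in both replicates, around the members other than Tcf4. The 24 such peaks around Tcf4, more than around any other member, were left out, and so were those of its chromosome in the genome-wide count. An E-box was present in 79.3% of them, against 68.4% of 46874 such windows genome-wide, and CAGCTG in 32.8% against 27.7%. The form CACCTG or CAGGTG was present in 15.5% against 9.69%, and AP-1 in 32.8% against 22.5%. GGCGCC was in 7 of the 58, 12.1%, against 2.37% of all windows, and 4 of those 7 lay around Id1, at -30, -12.2, -6.47 and 3.17 kb. The 7 windows with GGCGCC held 5 to 24 CpG and the other windows of the 58 held 0 to 13, and the part of base composition in the motif count was not tested.

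In the 250 bases before the start site, RefSeq promoters could be matched for 7 of the genes, with 9 start sites. An E-box was present in 4 of these 9 promoters, 44.4%, against 66.2% of 32851 promoters of the same length. CAGCTG was found once each in the promoters of Id2 and the first Tcf12 start, 22.2% against 13%, and GGCGCC once each in those of Id2 and Id4, 22.2% against 9.59%. The E-box form CACCTG and its reverse complement were in 0 of the 9, against 17.2% of all promoters, and AP-1 was in 0, against 6.75%. The promoters held 18 to 39 CpG, against a median of 6 over all promoters, except the internal Tcf12 start, which held none.

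Tcf3, on chr10:80409514-80433647, encodes the E protein with the strongest H3K4me3 peak of the family. The fold was 54.9 in replicate 1 and 39.1 in replicate 2, above that of 99.7% and 99.2% of protein-coding genes with an H3K4me3 promoter peak. H3K27ac reached 21.6 and 18.8, and open chromatin 12.9 and 12 at -419 and -406 bp from a start site, close to the medians of 13.3 and 12.2 over all open promoters. The H3K4me3 peak was 2493 and 1666 bp wide and covered only the upstream promoter, since the start sites 11.8 kb into the gene had no peak of any feature. The window held 1 ATAC-seq peak away from all promoters in both replicates, and much of its other signal lay on the promoters of the neighbours Mbd3 (H3K4me3 fold 48.1 and 39.5), Mex3d (35.2 and 30.9) and Uqcr11 (28.3 and 15.3).

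Tcf12, on chr9:71842688-72111871, encodes the E protein HEB and had the strongest H3K27ac of the family. The promoter at the 5′ end of the gene had an H3K27ac fold of 34.9 and 31.3, above 94.9% and 97.2% of acetylated promoters, with H3K4me3 of 38.2 and 28.3. A second promoter, 215 kb into the gene, had weaker H3K4me3, of 6.73 and 4.95. It was not less open, with ATAC-seq of 13.1 and 13.5 against 11.3 and 11.9 at the 5′ promoter. Its highest H3K27ac was 7.05 and 5.05, in peaks that did not overlap. The promoters at 111, 189 and 227 kb had no peak. Outside the gene, at -21.5 kb, an intergenic element (shown above) had all 3 active features in both replicates: ATAC-seq of 14.9 and 14.4, H3K4me3 of 23.7 and 18, and H3K27ac of 17.2 and 14.7. The nearest annotated start there belongs to the pseudogene Gm7863 and lies over 3 kb away, so the element counted as away from promoters although its H3K4me3 was close to the medians of 23.9 and 17.6 over marked promoters. Of 13 open sites away from promoters in both replicates, the highest was an intronic site 196 kb into the gene, with 15.3 and 17.9 and no histone mark in both replicates.

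Tcf4 encodes the E protein with the longest gene of the family, 345724 bp on chromosome 18 (69343356 to 69689079), and with 58 annotated start sites in 9 separate promoter stretches. A gene with so many start sites has more promoter sequence in which a peak can fall. The stretch at the 5′ end had the strongest marks, with H3K4me3 of 27.6 and 26.9 and H3K27ac of 20.7 and 16.9. Its widest H3K4me3 peak was 6299 bp in replicate 1 and 3469 bp in replicate 2, wider than in 99.5% and 97.5% of marked genes, a difference of almost 3 kb between replicates.

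A further Tcf4 promoter stretch, 249.6 kb into the gene, had H3K4me3 of 22.7 and 15 and H3K27ac of 9.72 and 10.7. The stretch at 156 kb was weaker, with H3K4me3 of 11.6 and 8.37 and H3K27ac of 10.7 and 4.91. At 72.5 kb H3K27ac was present in both replicates, at 10.8 and 5.76, and H3K4me3 in replicate 1 only. The stretch at 313 kb was the most open promoter of the gene, with ATAC-seq of 20.7 and 20.1, and had no H3K4me3 in either replicate. Its weak H3K27ac peaks, of 5.37 and 2.99, did not overlap, so neither was found in both replicates. Of the remaining stretches, that at 176 kb had ATAC-seq of 9.49 and 8.17, H3K4me3 of 4.24 and 3.51 and H3K27ac in replicate 1 only. That at 269 kb was open at a site found in both replicates, with 4.95 and 5.08. That at 336 kb had ATAC-seq peaks of 6.65 and 4.01 that did not overlap, so neither was found in both replicates. Both stretches lacked H3K4me3 and H3K27ac, and that at 219.7 kb had no peak of these features. Open sites away from promoters numbered 24 in both replicates, more than around 99% of protein-coding genes, and as the window is 446 kb long this is 5.38 per 100 kb, above 84.8% of genes. The most open were introns at 126 kb (20.3 and 21.5) and 205 kb (19.7 and 19.5), neither overlapped by a histone mark in both replicates, whereas the intron at 233 kb had ATAC-seq of 13.9 and 9.06 with H3K4me3 of 10.4 and 6.61 and H3K27ac of 6.9 and 5.52.

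**Figure D2:**
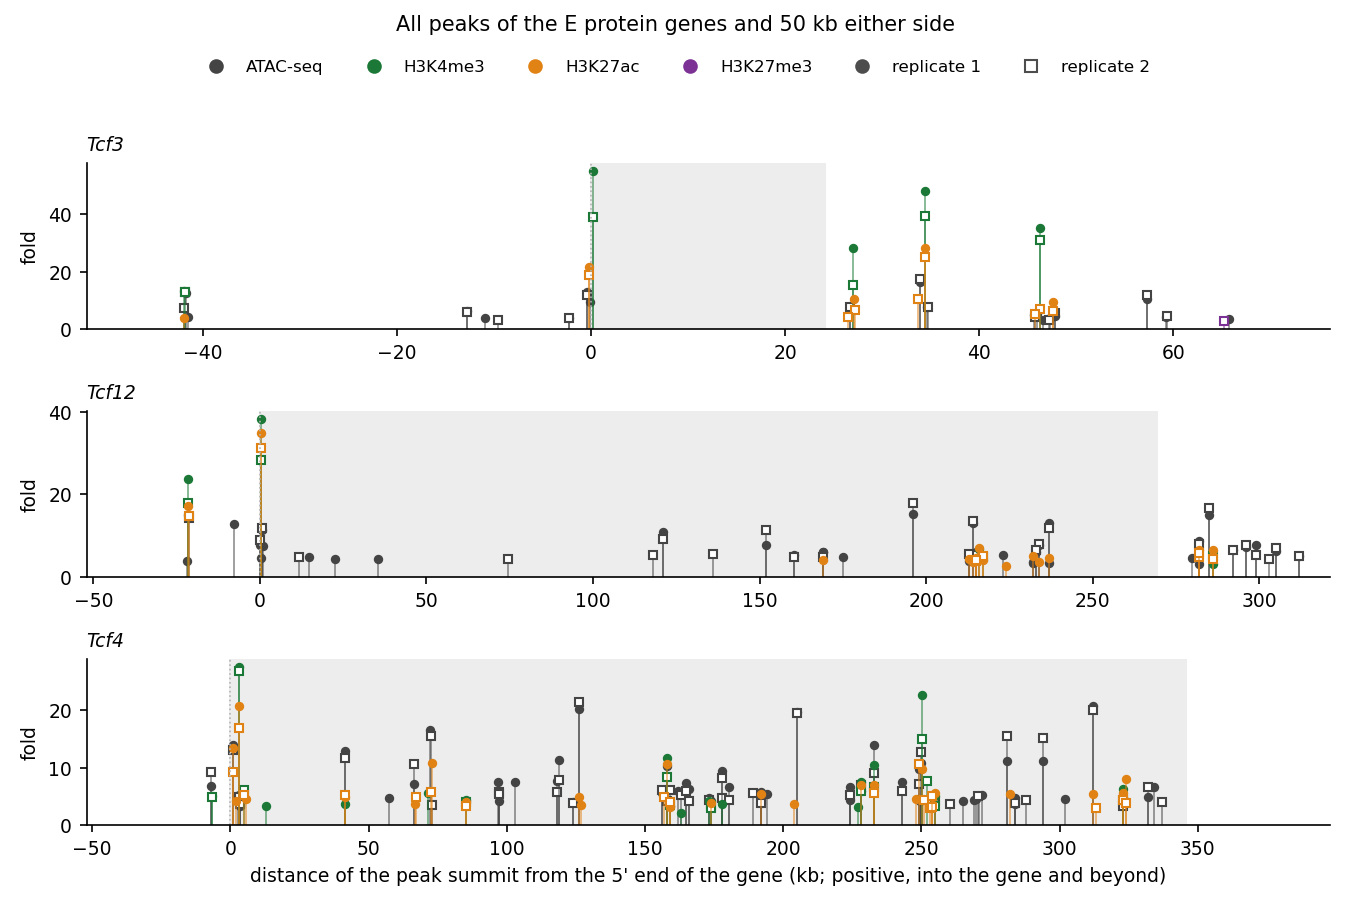
Peaks of the 3 E protein genes and 50 kb either side, placed by the distance of the summit from the 5′ end of the gene (x axis, kb; grey band, the gene) with the fold enrichment as height (y axis); colours are the 4 features, filled circles replicate 1 and open squares replicate 2. Tcf3 has all its own H3K4me3 and H3K27ac at the 5′ end, Tcf12 has a marked element at -21.5 kb, and Tcf4 has marked promoters along the gene, including the one at 249.6 kb.

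The 4 Id genes are short, 1160 to 4799 bp, and their promoters had H3K4me3 of intermediate fold, from 17.2 to 22.1 in replicate 1 and from 13.2 to 17.2 in replicate 2, against medians of 23.9 and 17.6 over all marked genes. Their H3K4me3 was wide in Id1, Id2 and Id3, above 91.7% of marked genes or more in replicate 1 and 82% or more in replicate 2. H3K27ac separated Id4 from the others in both replicates, at 5.75 and 6.25 against 10.3 to 15.7 in replicate 1 and 9.33 to 11.6 in replicate 2 for Id1, Id2 and Id3.

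Id1, on chr2:152736251-152737410, is a classical BMP target that holds E proteins inactive. Its H3K4me3 fold was 22.1 and 15.7 in a peak of 3620 and 2046 bp, and its H3K27ac 10.3 and 9.93. The highest ATAC-seq peak of the promoter was not at the start site but at -1071 and -1031 bp, with a fold of 15.8 in replicate 1 and 8.03 in replicate 2, the widest relative gap between replicates for this peak among the 10 genes. The surroundings of Id1 were densely open: 14 replicate 1 peaks away from promoters were found in both replicates. This is 13.8 per 100 kb, above 99.4% of protein-coding genes, where the median gene has 1.58. Counted as peaks of replicate 2 there were 13. Some neighbouring replicate 1 peaks matched a replicate 2 peak of the same fold, as at -30.2 and -30 kb (5.79). Of the 14 peaks the highest was intergenic, at 30.3 kb, with 21.1 and 16.9, and had no histone mark in both replicates. Parts of the genes H13, before Id1, and Bcl2l1, beyond it, also lie in the window, and which gene an open site serves was not tested.

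Id2, on chr12:25093799-25097140, had its strongest H3K27ac at -1499 and -1512 bp, with 15.7 and 11.6, and not near the start sites, where it was 9.58 and 6.25. A second H3K4me3 peak, 3113 and 3037 bp wide with its summit at -3.7 kb, had a fold of 19.6 and 12.8, close to the 20.7 and 16.4 of the peak over the gene. H3K27ac continued there at 9.96 and 9.56. Farther out, at -13.4 kb, the intergenic element shown above had ATAC-seq of 15.9 and 17.3 with H3K27ac of 11 and 6.68 and no H3K4me3 in both replicates. A site at -46.6 kb was more open still, with 18.6 and 20.6, without a histone mark in both.

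Id3, on chr4:136143497-136145755, had H3K4me3 of 18.9 and 13.2 in a peak of 4296 and 2579 bp, wider than in 97.3% and 92% of marked genes. H3K27ac was 15 in replicate 1 but 8.1 in replicate 2 over the gene, where the highest replicate 2 peak, 9.33, lay at -2.73 kb instead. The most open promoter site was also on that side, at -2965 and -2969 bp, with 11.6 and 10.9. The element at -26.3 kb, shown above, had ATAC-seq of 14.7 and 15.7 flanked by H3K27ac peaks of 5.48 and 4.57 on one side and 5.85 and 7.36 on the other. With 12 open and 3 acetylated sites away from promoters in both replicates, Id3 stood above 98.6% and 99% of protein-coding genes per 100 kb. E2f2, a regulator of the cell cycle, had its promoter in the same window, with H3K27ac of 10.2 and 8.83.

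Id4, on chr13:48261228-48266026, was open at 13 and 12.7 and had H3K4me3 of 17.2 in both replicates, yet its H3K27ac peak was small, 415 and 390 bp wide. That fold, 5.75 and 6.25, was above only 10.7% and 14.6% of acetylated promoters. No other H3K27ac peak lay within 50 kb. The start sites of the non-coding genes A330033J07Rik and Gm49291 lie within 1.4 kb of that of Id4, on the opposite strand, and their peaks cannot be separated from it. An intronic site of A330033J07Rik, at -33.4 kb, was the most open of the family found in both replicates, with 30.3 and 21.2, with H3K4me3 of only 3.95 and 3.41. A peak of still higher fold, 58.2, lay at 35.1 kb in replicate 1, was 118 bp wide and had no counterpart in replicate 2.

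Msc, on chr1:14753346-14755992, encodes a bHLH repressor that marks MuSCs, and had the widest H3K4me3 of the family in replicate 2 and the second widest in replicate 1. The peak measured 6215 and 5703 bp, wider than in 99.5% and 99.7% of marked genes, although its fold, 27.6 and 18, was near the medians of 23.9 and 17.6. H3K27ac was also wide, 3593 and 2793 bp, above 98.7% and 97.9% of acetylated promoters, at a fold of 15.4 and 11.6. The antisense gene Gm9947 starts 101 bp from Msc on the other strand, and the peak covers both. Upstream, in an intron of Gm9947, 5 ATAC-seq peaks of replicate 1 between -19.4 and -16.9 kb were each overlapped by H3K27ac of both replicates. The highest, shown above, had ATAC-seq of 14.6 and 15.9 and H3K27ac of 10.6 in both. A site at -25.6 kb was the most open of the window, with 19.4 and 20.1, and carried no histone mark in both.

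Twist1, on chr12:33957671-33959829, and Twist2, on chr1:91801461-91848028, encode the repressors with the lowest H3K4me3 folds of the family. Twist1 had ATAC-seq of 8.05 and 9.6 and H3K4me3 of 11.3 and 8.62, above 18.2% and 16.6% of marked genes. Twist2 had ATAC-seq of 11.5 and 7.37 and H3K4me3 of 9.51 and 9.42, above 14.7% and 19.1%. Neither gene had an H3K27ac peak anywhere in its window in either replicate, in contrast to every other member.

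The H3K27me3 of Twist1 consisted of 6 promoter peaks in replicate 1 and 7 in replicate 2, with 10 and 15 peaks in the whole window. The highest promoter folds were 4.5 and 4.79, above the medians of 4.13 and 4.11 over all genes with the mark, and their −log10 q values were 2.09 and 3.35. Of the replicate 1 peaks, 4 of the 6 at the promoter shared a base with a peak of replicate 2, and 0 of the 4 away from it did. The 2 marks of opposite association overlapped: the H3K4me3 peak of either replicate shared bases with H3K27me3 peaks in both. The H3K27me3 peaks that did so had −log10 q values of 0.934 to 1.49 in replicate 1 and 1.51 to 3.35 in replicate 2. Those of replicate 1 that overlapped the replicate 2 H3K4me3 peak had 0.934, a q above 0.05. Whether the 2 marks lay on the same chromosomes or in different cells cannot be told apart in these lists. On Twist2 there was 1 promoter peak, of fold 4.11 and −log10 q 2.11, in replicate 2 and none in replicate 1.

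Around Twist1 no open site away from promoters was found in both replicates. Each list had 1, at 8.94 kb in replicate 1 and 9.96 kb in replicate 2, with folds of 8.85 and 6.47, and they did not overlap. The highest H3K27me3 peak of the window, of fold 6, lay at 8.95 kb in replicate 1, on the same bases as that ATAC-seq peak, and replicate 2 had neither. Its neighbour Ferd3l, a bHLH gene of the nervous system, had no promoter peak of any feature. Twist2 had an open intronic site at 22.1 kb, with 12.5 and 12.8, which counted with a promoter of Gm29101, and 2 sites away from promoters in both replicates.

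**Figure D3:**
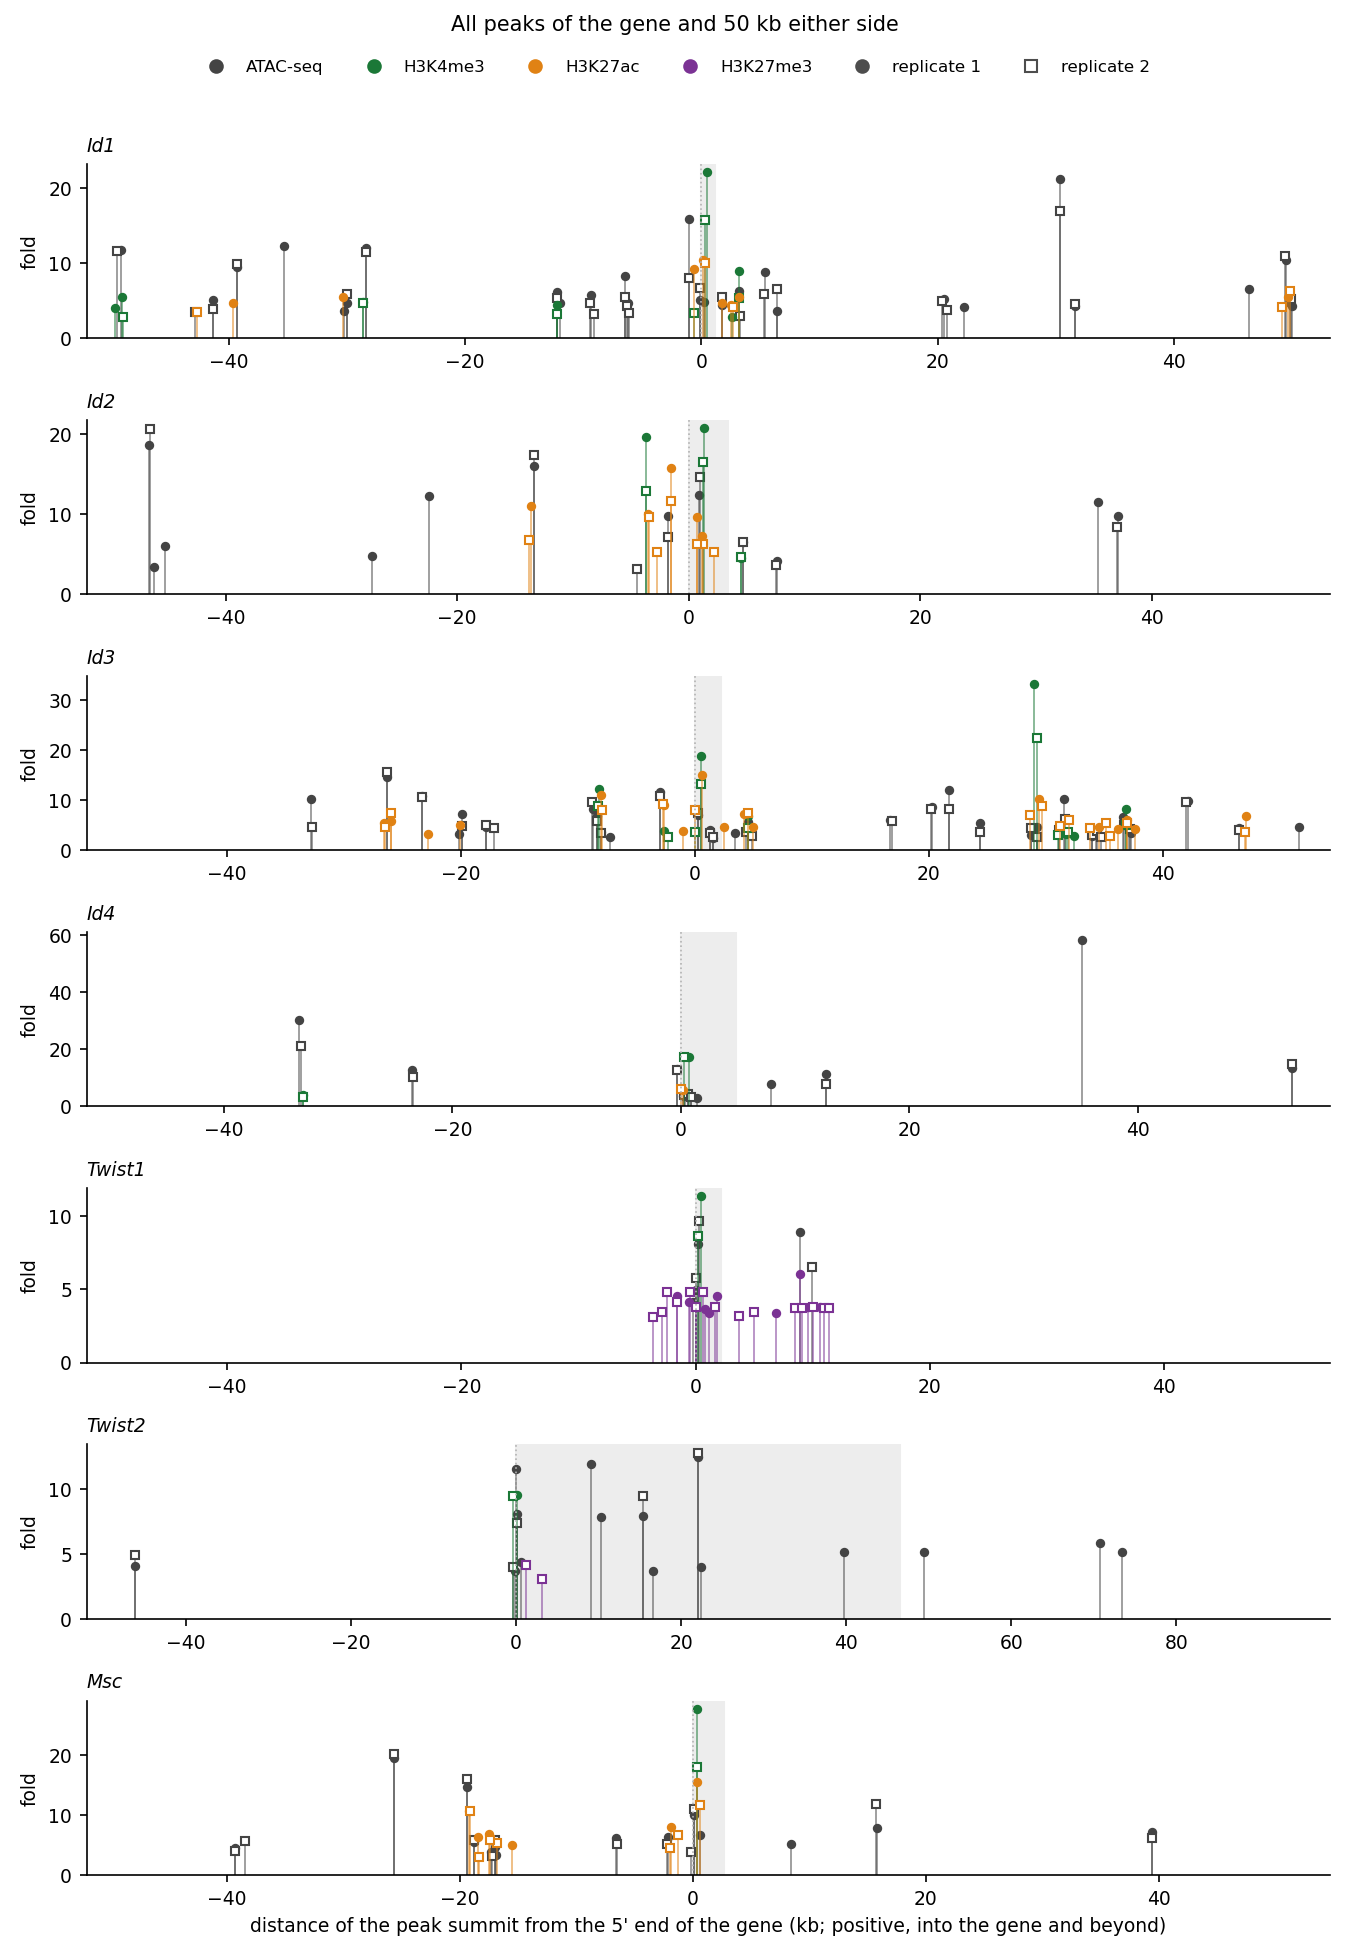
Peaks of the 4 Id and 3 repressor genes and 50 kb either side, placed by the distance of the summit from the 5′ end of the gene (x axis, kb; grey band, the gene) with the fold enrichment as height (y axis, its own scale for each gene); colours are the features, filled circles replicate 1 and open squares replicate 2. Purple H3K27me3 points lie around Twist1 and, in replicate 2, Twist2, and orange H3K27ac points lie before Id2, Id3 and Msc, including the Msc group from -19.4 to -16.9 kb.

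**Figure D4:**
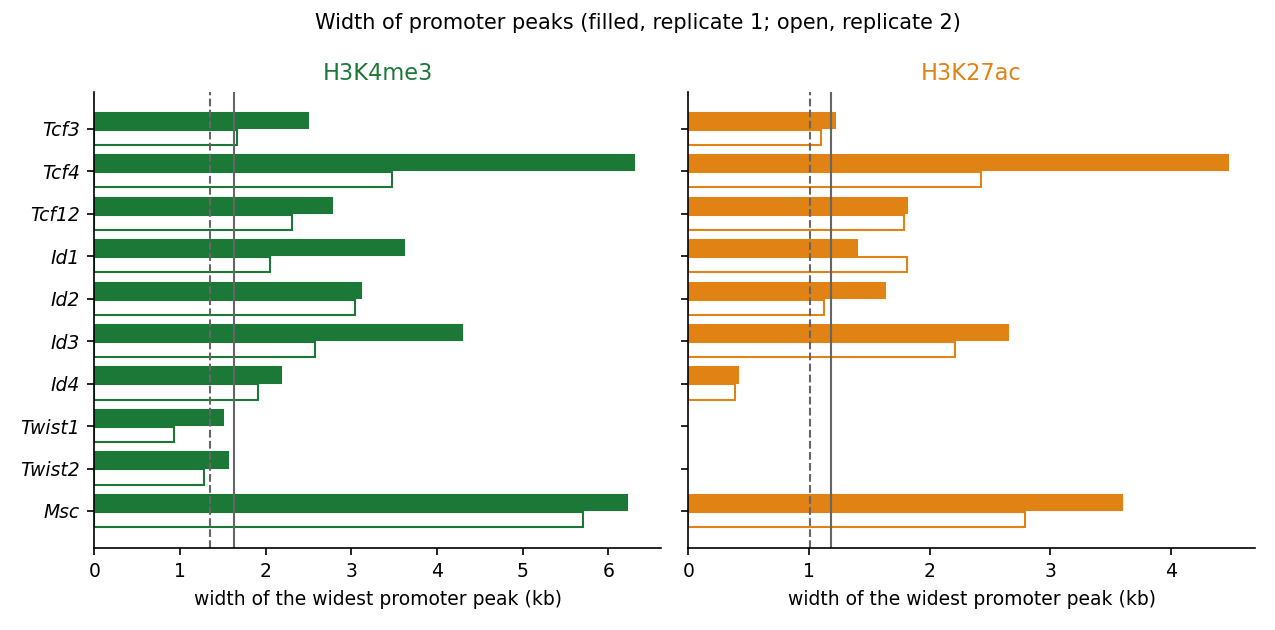
Width of the widest promoter peak (x axis, kb) of H3K4me3 and H3K27ac for each gene; filled bars are replicate 1, open bars replicate 2, and the solid and dashed lines are the medians of all marked protein-coding genes in replicates 1 and 2. Msc and Tcf4 have the widest H3K4me3 in replicate 1, at 6215 and 6299 bp, and of these Msc is as wide in replicate 2, at 5703 bp.

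Over the 10 windows, 82 ATAC-seq peaks away from all promoters were found in both replicates, together with 16 of H3K27ac, 9 of H3K4me3 and 0 of H3K27me3. Of the 82 open sites, 13, or 15.9%, were overlapped by H3K27ac in both replicates, against 8.23% of 48588 such sites genome-wide, and 12, or 14.6%, by H3K4me3, against 5.36%. Open sites were counted as peaks of replicate 1, so neighbouring peaks of the same element, as upstream of Tcf12, Id1 and Msc, counted separately. The H3K27ac peaks were spread over 6 genes: 6 around Tcf4, 3 each around Id3 and Msc, 2 around Id2 and 1 each around Tcf12 and Id1. Tcf3, Id4, Twist1 and Twist2 had none. Of all peaks in the windows, the share found in the other replicate was 75.5% and 86.9% for ATAC-seq, close to or above the 62.9% and 84.7% of the whole lists, and 40% and 22.2% for H3K27me3, below the 68.3% and 34.8% of the whole lists.

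The partners of the E proteins differed by lineage. All 4 myogenic bHLH genes were open and had H3K4me3 in both replicates, and Myod1, Myf5 and Myf6 also had H3K27ac, of 15.5 and 10.6, 10.3 and 13.2, and 12.6 and 11. Myog, which acts in differentiating cells, was open at 6.72 and 7.02 with weak H3K4me3 of 3.95 and 3.81 and no H3K27ac. Of 22 bHLH partners of other lineages, 17 were open and 11 had H3K4me3 in both replicates, but 1, Lyl1, had H3K27ac, of 7.28 and 3.68. These are 77.3%, 50% and 4.55%, against 67.8%, 60.8% and 46.6% of all protein-coding genes. In replicate 1 only, H3K27ac was also called on Tal1, at 6.9, and on Scx, at 4.98. H3K27me3 was present in both replicates on 14 of the 22, 63.6% against 4.81% of all genes, and on 9 of them together with H3K4me3. The highest by the lower replicate were Tal1, a blood factor, at 6.38 and 8.21, Tcf21 at 6.38 and 6.5, Neurog2 at 6 and 6.66, and Tcf24 at 6.6 and 5.72. Twist1 was lower than these, at 4.5 and 4.79.

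Other repressors that bind E-boxes or related sites were mostly in the state of the 8 acetylated members. All 12 were open with H3K4me3 in both replicates and 9 had H3K27ac, led by Zeb1 (25.7 and 18.4), Bhlhe41 (15.9 and 18), Zeb2 (25.7 and 15.5) and Bhlhe40 (18.4 and 14.4). Over all protein-coding genes, 67.8% were open, 60.8% had H3K4me3 and 46.6% had H3K27ac in both replicates. Hes1, a Notch target, was the 1 gene of the list with H3K27me3 in both replicates, at 3.26 and 4.79, beside H3K4me3 of 22.7 and 12.2 and H3K27ac of 11.9 and 8.38. The zinc finger repressors Snai1 and Snai3 were open without H3K27ac, and Hey2 had it in replicate 1 only.

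Of the 18 genes of the BMP and SMAD pathway, 18 were open, 16 had H3K4me3 and 12 H3K27ac in both replicates. These are 100%, 88.9% and 66.7%, against 67.8%, 60.8% and 46.6% of all protein-coding genes. SMAD genes and a receptor gene led the list, with H3K27ac of 27.6 and 28.3 for Smad5, 24.5 and 25.7 for the receptor Bmpr1a, 21.8 and 22.4 for Smad4 and 29.1 and 21.7 for Smad1. The ligand gene Bmp7 had H3K27me3 of 3.75 and 5.48 and neither H3K4me3 nor H3K27ac, while its promoter was open at 65.1 and 51.4.

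**Figure D5:**
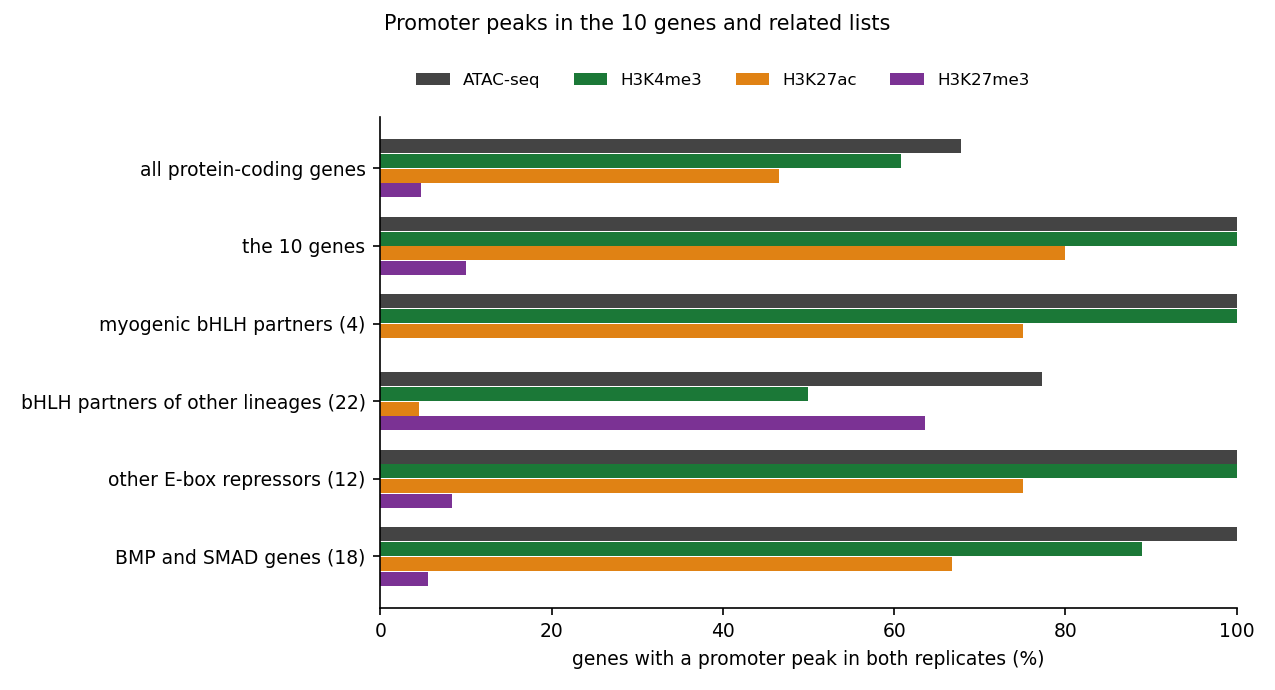
Share of genes with a promoter peak in both replicates (x axis, %) for all 21938 protein-coding genes, the 10 genes and 4 related lists, with the number of genes of a list in brackets; colours are the 4 features. The bHLH partners of other lineages are the list in which H3K27me3, at 63.6%, exceeds H3K27ac, at 4.55%.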

How the data were processed

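Per the labels and the study's methods, the authors trimmed reads with Trim Galore 0.6.10, aligned them to mm10 with BWA 0.7.17-r1188, removed duplicates, blacklisted regions and low-quality alignments, shifted ATAC-seq reads for the Tn5 offset with deepTools 3.5.5 and called peaks per library with MACS2 2.2.6. The deposited lists give for each peak a score, a fold enrichment over local background (a ratio), the −log10 p and −log10 q values and the summit. The fold and the −log10 values were used, and the score was not. The H3K27me3 lists reach down to −log10 p values of 3.01 and, in replicate 1, −log10 q values of 0, and are thus more lenient than the others. The fold is not comparable between features, and wide marks are split into several narrow peaks.

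Peaks sharing at least 1 bp with a promoter (3 kb either side of any start site in GENCODE M21) were assigned to the gene with Python 3.11.15 and NumPy 2.4.6. A peak was away from promoters if it shared no base with a promoter of any gene, and found in both replicates if it shared at least 1 bp with a peak of the other. Overlap code was tested on simulated intervals. Counts were set beside the same call over all protein-coding genes, and the share of marked genes below a value is over genes with such a peak in that list. In the lists, all genes were counted, and those named were led by H3K27ac fold or by H3K27me3 in the lower replicate, beside neighbours with promoter peaks in a window. Pax7, Ferd3l, Myog, Scx, Snai1, Snai3 and Hey2 were named after their values were seen. The members and lists were chosen with earlier results of these data known. All 32851 RefSeq promoter sequences (GRCm38.p6) equalled the genome at their coordinates. Promoters of Id1, Msc and Tcf4 were not used.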

Additional observations from a re-analysis of the deposited data

How the results depend on the processing

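Each count was recomputed under stricter peaks (−log10 q of at least 5), promoters of 1 kb, start sites of protein-coding transcripts, summits in place of overlap, lists of equal length, other windows, a larger shared part and single replicates. The counts of members with ATAC-seq, H3K4me3 and H3K27ac promoter peaks, and with all 3, were the same members in all of these settings that apply. With a −log10 q of at least 5, 0 members had an H3K27me3 promoter peak and 0 had it together with H3K4me3, so the Twist1 call rests on peaks of low significance, although it stayed with a q of at most 0.05. With a single replicate the counts of H3K27me3 and of both marks ranged from 1 to 2, Twist2 being added without replicate 1.

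Away from promoters, a window of 20 kb left 54 ATAC-seq peaks, and promoters of 1 kb gave 17 H3K4me3, 27 H3K27ac and 1 H3K27me3 peaks. The stricter threshold left 9 H3K27ac peaks, and a window of 100 kb gave 5 H3K27me3 peaks. Without one replicate the counts were 91 to 122 for ATAC-seq, 10 to 14 for H3K4me3, 19 to 32 for H3K27ac and 4 to 9 for H3K27me3, with the larger number always that of the longer list. No paired analysis was possible because no result comes from a test. Depth is unknown, so an absent peak says only that none was called.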
